A study of Homo sapiens with 14 samples.

Results

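The 9 genes described here, of 62699 in the count table, encode glycosyltransferases that put O-linked sugars on folded repeats of secreted and membrane proteins, and all 9 were found in the table by gene symbol. They are POGLUT1, POGLUT2 and POGLUT3, POFUT1 and POFUT2, EOGT, and the Fringe genes LFNG, MFNG and RFNG. They were chosen from the response to ADAR siRNA, read as the ratio of each ADAR siRNA library to the control siRNA library of its line, in which POGLUT3 stood out. For that contrast the values of the 9 genes are therefore given as a description, with no test.

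The data are bulk poly(A) RNA sequencing libraries of 4 established human cancer lines, from a study of ADAR1 and NOP14 in transcriptional output. An siRNA is a small RNA duplex that steers cleavage to a matching transcript, and ADAR encodes ADAR1, which turns adenosine into inosine within RNA duplexes. ADAR siRNA (libraries 1 and 2 in each line) was set against control siRNA (1 library in each line) in MDA-MB-231 and BT-549, labelled triple-negative breast cancer, in the lung adenocarcinoma line NCI-H1395, and in the gastric adenocarcinoma line AGS. In MDA-MB-231, NOP14 overexpression was set against a control named PCDH, with 1 library each. NOP14 is a nucleolar factor for the assembly of the small ribosomal subunit. The sources used here do not say whether libraries 1 and 2 carry the same siRNA or different ones, or come from separate cultures. The p-values thus measure only the spread between these samples.

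Total counts ran from 13338338 to 27828376 per library. ADAR siRNA left 32.3% and 33.8% of the ADAR level of control siRNA in MDA-MB-231 (libraries 1 and 2), and 12.9% and 11.5% in BT-549. NCI-H1395 kept 10.6% and 11.9% of it, while AGS kept 17.6% and 24.0%. Marker genes, read in the siRNA libraries, followed the labels in part. The hormone receptor gene ESR1 was at most 0.726 CPM (counts scaled by library size, here after TMM normalisation) in the breast lines. ERBB2, which encodes HER2, was at 58.1 to 64.3 CPM in MDA-MB-231 and 99.8 to 132 CPM in BT-549, and at 86.5 to 176 CPM in AGS. EPCAM, an epithelial marker, was at 314 to 394 CPM in AGS. It was at 5.52 to 12.3 CPM in MDA-MB-231, at 0.32 to 0.55 CPM in NCI-H1395 and at 0 in BT-549. Of the other epithelial markers in NCI-H1395, CDH1 was at most 0.716 CPM, but KRT18 was at 389 to 582 CPM. The mesenchymal marker VIM was at 1440 to 2505 CPM in NCI-H1395, against 3.68 to 8.14 CPM in AGS. The lung markers NKX2-1, NAPSA and SFTPB were at 0.935 CPM or lower in NCI-H1395, so these defining markers were at or near 0 there. Of the stomach and gut markers in AGS, GATA6 was at 149 to 173 CPM (14.1 to 67.9 CPM in the other lines), TFF1 and CLDN18 were at 2.34 CPM or lower and CDX1 was at 0. The leukocyte markers PTPRC and CD3E were at 1.01 CPM or lower in every siRNA library. The endothelial marker PECAM1 was at 5.88 to 21.5 CPM in MDA-MB-231 and at most 4.89 CPM in the other lines.

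Epidermal growth factor-like (EGF) repeats are small disulfide-bonded domains found in Notch receptors and their ligands, in fibrillins and in latent TGF-beta binding proteins. In the endoplasmic reticulum POGLUT1 adds O-glucose to EGF repeats, POGLUT2 and POGLUT3 add O-glucose at another position of the repeat, POFUT1 adds O-fucose and EOGT adds O-linked N-acetylglucosamine. The Fringe enzymes extend the O-fucose in the Golgi, which changes how Notch responds to its different ligands. POFUT2 is the exception to the name of the group: it fucosylates thrombospondin type 1 repeats, not EGF repeats.

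POGLUT3 (ENSG00000178202.14) lies on hg38 chromosome 11, 108472112 to 108498405, on the minus strand. Its partner in function, POGLUT2 (ENSG00000134901.14), lies on chromosome 13, 102784281 to 102799040, also on the minus strand. The stretches just upstream of both start sites are shown because POGLUT3 had the lowest ratio of the 9 to control siRNA over the lines and POGLUT2 adds the same sugar at the same position. They are RefSeq sequences of GRCh38.p14, printed 5' to 3' on the strand of the gene and only where they lie beyond the gene's end in the count table. POGLUT3 is chr11:108498406-108498634 (229 bases, 75.5% G or C) and POGLUT2 is chr13:102799041-102799226 (186 bases, 58.6% G or C). Capitals mark the letters TTTCCCGC on either strand, a form of the motif of E2F factors.
POGLUT3: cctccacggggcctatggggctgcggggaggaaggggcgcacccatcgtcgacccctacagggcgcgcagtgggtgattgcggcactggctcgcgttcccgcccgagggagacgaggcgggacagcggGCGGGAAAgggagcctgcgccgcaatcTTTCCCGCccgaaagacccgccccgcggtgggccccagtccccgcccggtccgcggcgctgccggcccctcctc
POGLUT2: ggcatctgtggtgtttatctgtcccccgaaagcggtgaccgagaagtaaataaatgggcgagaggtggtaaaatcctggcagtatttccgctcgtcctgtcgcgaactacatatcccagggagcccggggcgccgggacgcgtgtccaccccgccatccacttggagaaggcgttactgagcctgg

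RefSeq start-site windows were found for 7 of the 9 genes. EOGT and MFNG were not matched. In the 250 bases upstream of the start site, POGLUT3 held 2 matches to TTTCCCGC, beginning at -122 and -95, and none of the windows of the other 6 genes held any. Of 35116 RefSeq promoters of the same length, 488 (1.39%) held at least 1 match and 13 (0.037%) held 2 or more. POGLUT3 also held 5 matches to GGGCGG, the GC box, on either strand, which 42.6% of promoters hold. Each of the 2 capitalised stretches shares bases with a GC box. No window of the 7 genes held GTGGGAA, a form of the motif of the Notch nuclear factor RBPJ, which 5.43% of promoters hold. These motifs were picked after the POGLUT3 sequence had been read, and a match describes letters, not a bound site.

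At baseline, with control siRNA, POFUT1 transcripts were the most abundant of the 9 per kilobase of exon in every line, and POGLUT3 had rank 2 in 3 lines and rank 3 in BT-549. POFUT1 stood at 31.0 CPM per kilobase in MDA-MB-231 and 37.8 in BT-549, and at 17.6 in NCI-H1395 and 19.5 in AGS. POGLUT3 stood at 11.6 CPM per kilobase in MDA-MB-231 and 11.01 in BT-549, and reached 15.2 in NCI-H1395 and 14.3 in AGS. With 1 control library a line, no spread between samples stands behind this order. Close neighbours in it, such as RFNG at 7.68 and POFUT2 at 7.41 CPM per kilobase in AGS, are not told apart by these data.

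POGLUT3 and POFUT2 were the most even of the 9 across lines. The highest control level of POGLUT3 was 1.38 times the lowest, and that of POFUT2 was 1.12 times. The other O-glucosyltransferases were uneven: POGLUT2 was at 46.0 CPM in BT-549 and at 4.97 CPM in MDA-MB-231, a 9.25-fold span, and POGLUT1 spanned 5.45-fold. EOGT was highest in BT-549, at 77.9 CPM, where it had rank 2 per kilobase, and lowest in AGS, at 16.1 CPM. LFNG had the widest span, 19.2 CPM in MDA-MB-231 and 0.253 CPM in BT-549 (5 counts). MFNG was low everywhere, between 0.802 and 3.39 CPM.

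**Figure D1:**
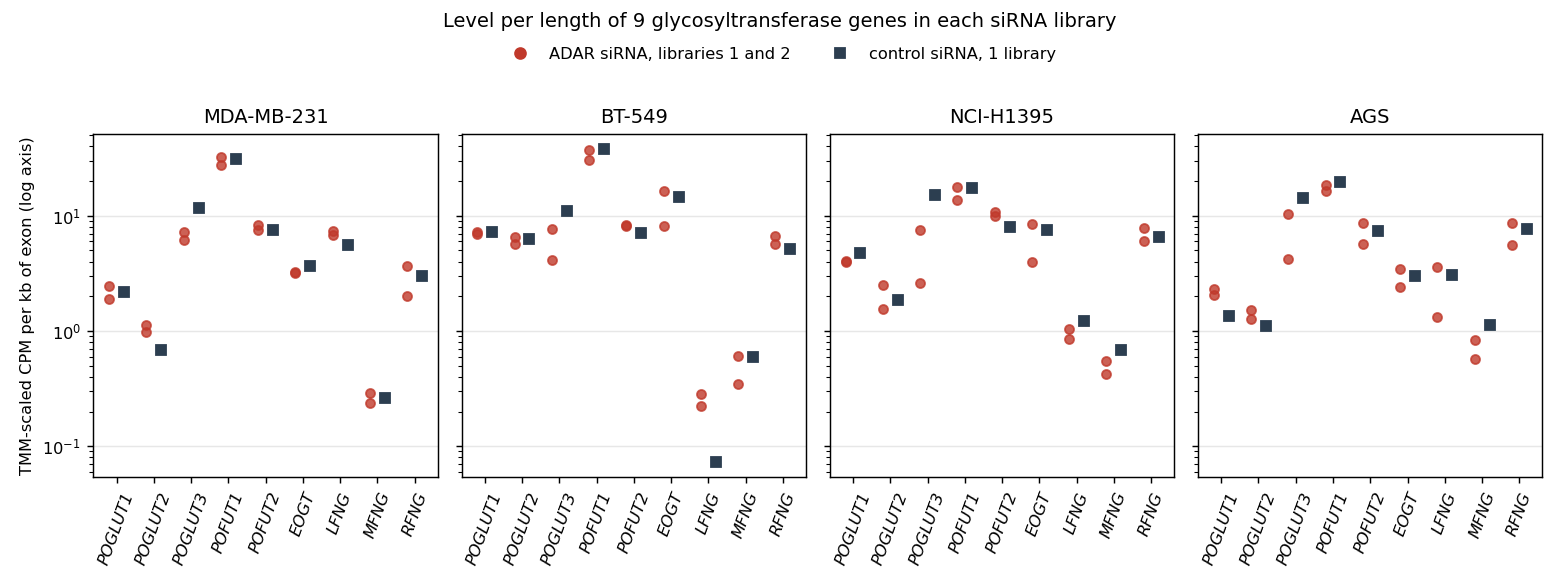
TMM-scaled CPM per kilobase of exon (log axis) of the 9 genes in each line, with ADAR siRNA libraries 1 and 2 as circles and the control siRNA library as a square. POFUT1 is highest in all 4 lines, POGLUT3 lies below its control in all 8 ADAR siRNA libraries, and LFNG ranges from 5.59 with control siRNA in MDA-MB-231 to 0.0734 in BT-549.

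Differences between lines were tested in the 8 ADAR siRNA libraries, 2 a line, which leave the control libraries out but also entered the ratios that chose the genes. The values of the 9 genes are therefore read as a description here too, without p-values. With edgeR's quasi-likelihood F test 80.1% of 20470 genes differed between lines, so a difference between lines is no feature of the group. The log2 difference between the highest and the lowest line was 4.84 for LFNG, 2.51 for POGLUT2, 2.06 for EOGT and 1.69 for POGLUT1. It was 1.38 for MFNG, 1.29 for RFNG and 1.11 for POFUT1. The smallest were those of POGLUT3 (0.55) and POFUT2 (0.52), which does not show that their levels were equal. The POGLUT3 libraries within a line were at 52.8 and 18.3 CPM in NCI-H1395 and at 43.5 and 50.8 CPM in MDA-MB-231.

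POGLUT3 was lower with ADAR siRNA in every library of every line. In MDA-MB-231 it stood at 43.5 and 50.8 CPM with ADAR siRNA (libraries 1 and 2), against 81.4 CPM with control siRNA. In BT-549 it stood at 54.2 and 29.3 CPM with ADAR siRNA, against 77.3 CPM with control siRNA. In NCI-H1395 it stood at 52.8 and 18.3 CPM with ADAR siRNA, against 107 CPM with control siRNA. The lowest of all 14 libraries was thus library 2 of NCI-H1395. In AGS it stood at 73.6 and 29.9 CPM with ADAR siRNA, against 100.3 CPM with control siRNA.

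The 8 ADAR siRNA libraries and the 4 control siRNA libraries did not overlap for POGLUT3, whatever the line: the highest with ADAR siRNA was 73.6 CPM and the lowest with control siRNA 77.3 CPM. Among 12057 genes with a mean log2 CPM of at least 1, 5 genes (0.0415%) lay wholly below their controls in this way, and 8 of the 9 genes described here were in that pool. As a share of control siRNA, POGLUT3 was left at 53.4% (95% counting interval 48.6 to 58.5) and 62.3% (57.2 to 67.9) in MDA-MB-231 and at 70.1% (64.5 to 76.0) and 37.9% (34.5 to 41.6) in BT-549. It was left at 49.5% (46.0 to 53.1) and 17.2% (15.2 to 19.4) in NCI-H1395 and at 73.4% (68.2 to 78.9) and 29.8% (27.0 to 32.9) in AGS. These intervals cover counting error only, and each of the 8 lies below 100%. In bulk libraries, fewer cells with a transcript and less of it per cell cannot be told apart.

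**Figure D2:**
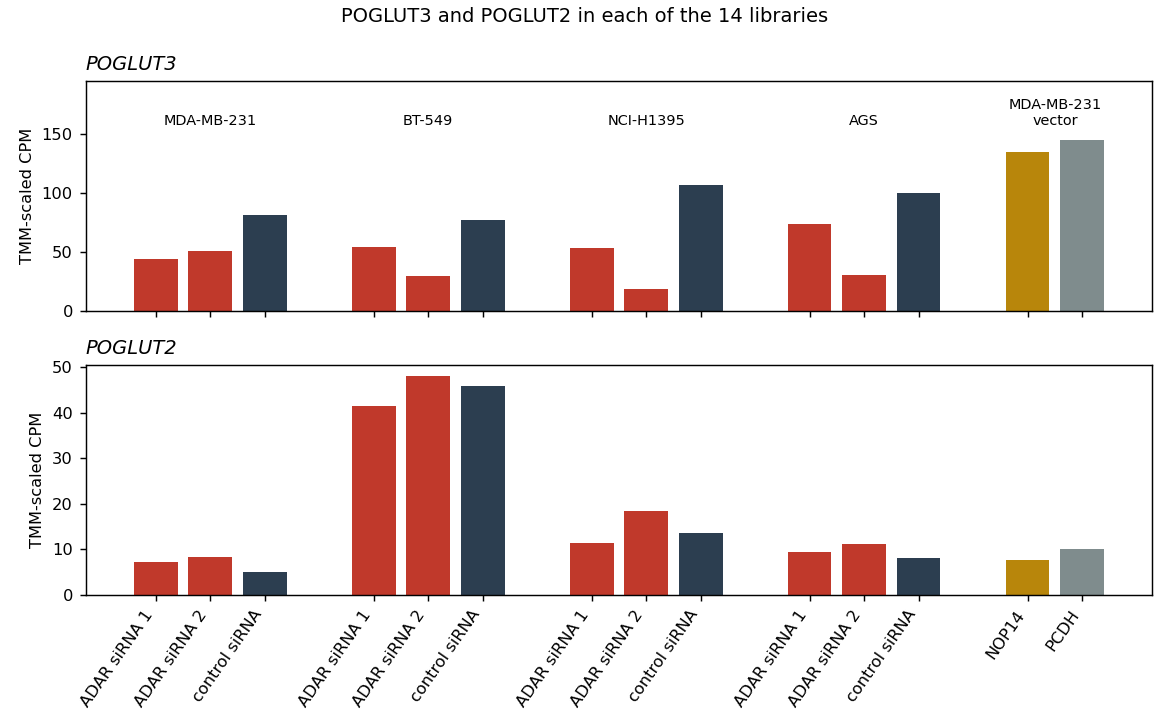
TMM-scaled CPM of POGLUT3 (top) and POGLUT2 (bottom) in each of the 14 libraries, 1 bar a library. POGLUT3 is at 18.3 to 73.6 CPM in the ADAR siRNA libraries and 77.3 to 107 CPM in the control siRNA libraries, while POGLUT2 is at 7.13 to 48.1 CPM with ADAR siRNA and 4.97 to 46.0 CPM with control siRNA.

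POGLUT3 was the single gene of the 9 with 1 direction in all 8 ADAR siRNA libraries. Of the 12057 genes, 631 (5.23%) were lower in all 8 and 274 (2.27%) were higher in all 8. POGLUT2, which shares the site on the EGF repeat with POGLUT3, was higher in 6 of 8 libraries and lower in 2. It stood at 7.13 and 8.23 CPM with ADAR siRNA and 4.97 CPM with control siRNA in MDA-MB-231, and at 9.30 and 11.3 CPM with ADAR siRNA and 8.07 CPM with control siRNA in AGS. In BT-549 it stood at 41.5 and 48.1 CPM with ADAR siRNA and 46.0 CPM with control siRNA, and in NCI-H1395 at 11.4 and 18.4 CPM with ADAR siRNA and 13.6 CPM with control siRNA, so the control lay between the libraries in both lines.

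POGLUT1 (ENSG00000163389.12; chromosome 3, 119468963 to 119494708), which glucosylates Notch receptors, lay on different sides of its control by line. In AGS it was at 153% and 174% of control siRNA, with 14.4 and 16.5 CPM with ADAR siRNA against 9.47 CPM with control siRNA. In NCI-H1395 it was at 84.9% and 85.9%, and in BT-549 at 96.1% and 99.3%. In MDA-MB-231 its libraries fell on either side of the control, at 86.2% and 113%.

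The fucosyltransferase genes POFUT1 (ENSG00000101346.15; chromosome 20, 32207855 to 32238658) and POFUT2 (ENSG00000186866.17; chromosome 21, 45263928 to 45287898) stayed nearest to their controls. POFUT1 ranged from 78.3% to 104% of control siRNA and POFUT2 from 77.3% to 135%. For POFUT1, 5 of the 8 counting intervals lay below 100% and none above, the lowest being library 2 of NCI-H1395, with 91.5 CPM against 117 CPM with control siRNA. POFUT2 was higher than control siRNA in 7 of 8 libraries, most in NCI-H1395, with 63.4 and 59.0 CPM with ADAR siRNA against 47.1 CPM with control siRNA. The exception was library 1 of AGS, with 33.6 CPM against 43.4 CPM with control siRNA. POFUT2 shares 310 exon bases with LINC00334 on the other strand, which had at most 4 counts in any library.

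EOGT (ENSG00000163378.14; chromosome 3, 68975217 to 69013684) differed between the ADAR siRNA libraries in BT-549 and NCI-H1395. In BT-549 it was at 43.7 CPM in library 1 and 88.1 CPM in library 2, against 77.9 CPM with control siRNA. In NCI-H1395 it was at 21.1 CPM in library 1 and 45.4 CPM in library 2, against 40.2 CPM with control siRNA. Library 1 was thus at 56.1% and 52.6% of control siRNA in these lines, and library 2 at 113% in both. In AGS the order was turned, at 114% in library 1 and 80.9% in library 2, and in MDA-MB-231 both libraries were close, at 88.6% and 87.1%.

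Among the Fringe genes LFNG (ENSG00000106003.14; chromosome 7, 2512529 to 2529177), MFNG (ENSG00000100060.18; chromosome 22, 37469063 to 37486393) and RFNG (ENSG00000169733.12; chromosome 17, 82047902 to 82051831) no single direction held. LFNG was at 23.6 and 25.3 CPM with ADAR siRNA, against 19.2 CPM with control siRNA, in MDA-MB-231, and at 2.93 and 3.58 CPM, against 4.21 CPM, in NCI-H1395. In AGS it was at 4.56 CPM in library 1 and 12.4 CPM in library 2, against 10.5 CPM with control siRNA. Its 387% and 305% in BT-549 rest on 17 and 17 counts with ADAR siRNA against 5 counts with control siRNA, with counting intervals from 137% to 1340% and from 108% to 1060%. MFNG was below control siRNA in 6 of 8 libraries, between 51.1% and 109%, at no more than 2.52 CPM with ADAR siRNA. RFNG was between 67.6% and 128%, lower in 3 and higher in 5 libraries.

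RFNG needs a limit of its own. It shares 835 of its 3865 exon bases with GPS1 on the opposite strand, a COP9 signalosome subunit gene with up to 3880 counts, and the sources used here do not say whether reads were counted by strand. Reads of both genes could therefore have been shared. In MDA-MB-231 GPS1 was at 122 and 156 CPM with ADAR siRNA against 161 CPM with control siRNA, and RFNG at 7.80 and 14.2 CPM against 11.5 CPM. In AGS GPS1 was at 49.6 and 75.4 CPM with ADAR siRNA against 75.5 CPM with control siRNA, and RFNG at 21.4 and 33.3 CPM against 29.7 CPM. In both lines library 1 was the lower for both genes. In NCI-H1395 GPS1 was at 129 and 126 CPM with ADAR siRNA against 174 CPM with control siRNA. RFNG was there at 30.5 and 23.3 CPM against 25.6 CPM, and library 1 was the higher for both genes. In BT-549 GPS1 was at 94.0 and 86.8 CPM with ADAR siRNA against 93.0 CPM with control siRNA, and in RFNG, too, library 1 was the higher of both libraries, at 25.6 and 22.0 CPM with ADAR siRNA. The part of GPS1 in the RFNG values was not tested.

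**Figure D3:**
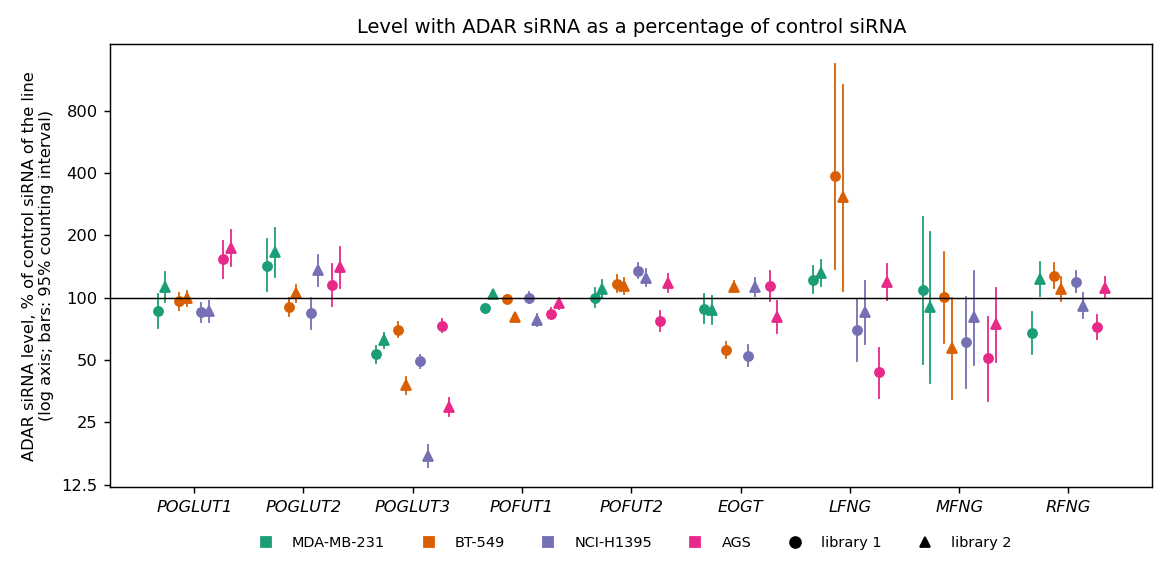
Level with ADAR siRNA as a percentage of the control siRNA library of the same line (log axis), with 95% counting intervals as bars, colour for the line and shape for library 1 or 2. All 8 points of POGLUT3 lie below 100% (17.2% to 73.4%), whereas the points of each other gene lie on both sides of it.

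Over the 4 lines, with the ADAR siRNA libraries of a line summed and line as a term, the log2 fold change of POGLUT3 was -1.02 ± 0.13 (standard error, 4 lines). The other 8 genes had values of 0.12 ± 0.16 for POGLUT1, 0.26 ± 0.17 for POGLUT2, -0.11 ± 0.10 for POFUT1 and 0.18 ± 0.12 for POFUT2. EOGT had -0.18 ± 0.13, LFNG 0.13 ± 0.27, MFNG -0.41 ± 0.32 and RFNG 0.07 ± 0.15. The median of the 9 was 0.07, against 0.06 for all genes in the fit. This fit called 4 of 21944 genes (0.0182%) with edgeR at an adjusted p under 0.05, and 2 of them (0.00911%) were lower. POGLUT3 was among these, and since it was chosen from this contrast nothing is read from that. Its log2 fold change lay between -1.59 and -0.71 over 20 other settings, of which 10 called it and 10 did not. Within lines the POGLUT3 log2 fold changes were -0.79 ± 0.78 in MDA-MB-231 and -0.89 ± 0.78 in BT-549, and they were -1.58 ± 0.77 in NCI-H1395 and -0.96 ± 0.78 in AGS. There edgeR called 0.0751% of 23959 genes in MDA-MB-231 and 0.00417% in each other line.

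The median of the genes beside POGLUT3 on chromosome 11 was near control siRNA. Over the 25 genes on either side the median log2 ratio of ADAR siRNA to control siRNA lay between -0.04 and 0.07 in the 8 libraries. That of POGLUT3 lay between -2.54 and -0.45. Between 0 and 7 of the 50 neighbours had a ratio as low as POGLUT3 or lower in a given library. The neighbours passed a count filter over all libraries, and a gene without counts in both libraries of a ratio has a log2 ratio of 0. The median was exactly 0 in library 2 of MDA-MB-231 and in library 2 of AGS. Such silent genes can hold the medians near 0, and expressed neighbours were not read apart. For RFNG on chromosome 17 the neighbours moved more, with medians from -0.61 in library 1 of AGS to 0.02.

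The difference between ADAR siRNA libraries 2 and 1 of a line is the difference of the ratios that chose the genes, so for the 9 genes it is also a description with no test. POGLUT3 was lower in library 2 than in library 1 in BT-549, NCI-H1395 and AGS, by the CPM values above, and higher in MDA-MB-231. With line as a term its log2 difference was -0.89 ± 0.23 (standard error, 4 lines), and it lay between -1.25 and -0.69 over 8 other settings. It was -1.25 without MDA-MB-231.

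POGLUT2 had a log2 difference of 0.34 ± 0.19 and was higher in library 2 in 4 of 4 lines. EOGT had 0.41 ± 0.24 and LFNG 0.44 ± 0.29. POGLUT1, with 0.15 ± 0.17, RFNG, with 0.20 ± 0.21, and POFUT2, with 0.14 ± 0.16, differed by about 1 standard error or less. POFUT1 had -0.07 ± 0.15 and MFNG -0.02 ± 0.45.

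The makeup of the O-glucosyltransferase transcripts followed these values. POGLUT3 was a smaller share of the summed CPM per kilobase of POGLUT1, POGLUT2 and POGLUT3 in each of the 8 ADAR siRNA libraries than in the control of its line. It made up 68.4% and 66.8% with ADAR siRNA and 80.2% with control siRNA in MDA-MB-231, and 37.9% and 23.2% against 44.8% in BT-549. It made up 57.5% and 28.4% against 69.8% in NCI-H1395, and 76.0% and 52.4% against 85.4% in AGS. In library 2 of BT-549, POGLUT3 was below POGLUT2 per kilobase, at 0.636 times its level, against 1.76 times with control siRNA. In library 2 of NCI-H1395 both were about level, at 1.04 times, against 8.22 times with control siRNA. The summed level of POGLUT2 and POGLUT3, which act on the same site, was 7.16 and 8.35 CPM per kilobase with ADAR siRNA against 12.3 with control siRNA in MDA-MB-231, and 5.11 to 13.4 against 15.4 to 17.3 in the other lines.

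**Figure D4:**
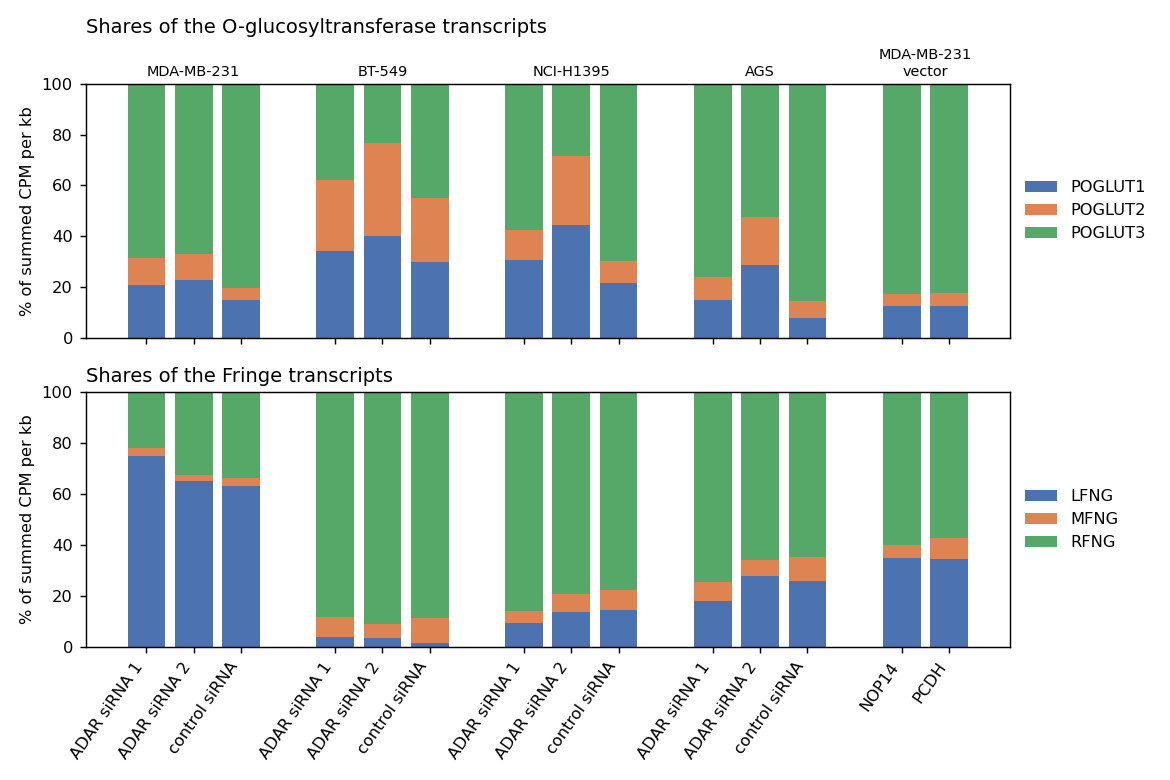
Share of each gene in the summed CPM per kilobase of the 3 O-glucosyltransferase genes (top) and the 3 Fringe genes (bottom), 1 bar a library. The POGLUT3 share is lower with ADAR siRNA in every line, down to 23.2% in library 2 of BT-549, and LFNG holds most of the Fringe total for siRNA in MDA-MB-231 alone.

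The leading Fringe transcript was the same with ADAR siRNA and control siRNA within each line. LFNG, the Fringe enzyme best known from somite segmentation in mice, made up 74.8% and 65.3% of the summed Fringe level per kilobase with ADAR siRNA and 63.2% with control siRNA in MDA-MB-231. RFNG led in the other lines, with 88.1% and 90.9% with ADAR siRNA and 88.5% with control siRNA in BT-549. It held 86.1% and 79.1% against 77.6% in NCI-H1395, and 74.5% and 65.9% against 64.9% in AGS. In the vector libraries of MDA-MB-231 RFNG led as well, with 60.0% under NOP14 overexpression and 57.2% under PCDH, unlike the siRNA libraries of that line. The reads that RFNG could share with GPS1 enter these shares.

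Other genes of the same biology were counted as lists of 51 genes in all: Notch receptors, ligands, the cleavage and nuclear complex, target genes, sugar-extending enzymes, sugar donor supply, and fibrillins with latent TGF-beta binding proteins. Over the 4 lines edgeR called 0 of the 49 that could be tested, and 11 had an unadjusted p under 0.05 (as had 2523 of all 21944 genes). DESeq2 called 3 of the 49, and 676 of all 21944 genes (3.08%). That share counts genes to which DESeq2 gave no adjusted p, so it is too low as a background. The 3 were 7.5% of the list genes with an adjusted p, and the matching share of all genes was not computed. These 3 were NCSTN, a gamma-secretase subunit (log2 fold change 0.32, DESeq2 adjusted p = 0.00207), UXS1, which makes UDP-xylose (-0.48, 0.000959), and LTBP2, a latent TGF-beta binding protein family member (0.89, 0.0414). NCSTN was higher with ADAR siRNA in all 8 libraries, between 94.0 and 218 CPM, against 83.3 to 160 CPM with control siRNA. UXS1 was lower in all 8, for example 30.0 and 19.9 CPM with ADAR siRNA against 39.7 CPM with control siRNA in NCI-H1395. LTBP2 was high in library 2 of NCI-H1395 (461 CPM) and of BT-549 (85.5 CPM), against 99.3 and 17.0 CPM with control siRNA, and near its control in library 1 of both.

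By list, 1 of 3 tested Notch receptors was higher and 2 lower with ADAR siRNA, with a median log2 fold change of -0.20. Of 5 ligands 3 were higher (median 0.04), of 13 cleavage and nuclear complex genes 8 (0.08) and of 7 target genes 3 (-0.19). Of 5 sugar-extending enzymes 3 were higher (0.11), of 9 sugar donor genes 6 (0.06), and of 7 fibrillins and latent TGF-beta binding proteins 5 (0.48). The median over all genes was 0.06. HEY1, a transcriptional repressor that Notch induces, had a log2 fold change of 1.44 ± 0.34 that did not pass with edgeR (adjusted p = 0.156, 4 lines). With no low-count filter HEY1 passed (edgeR adjusted p = 0.00252), as did LTBP1, LTBP2 and LTBP3 of the lists. That setting called 394 of 41401 genes in all. The target genes HEYL (1.24 ± 0.48, edgeR adjusted p = 0.333) and NRARP (-0.52 ± 0.21, 0.345) did not pass. HEY1 was at 15.3 and 14.3 CPM with ADAR siRNA against 6.13 CPM with control siRNA in NCI-H1395, and at 5.55 and 1.74 CPM against 0.701 CPM (12 counts) in AGS. It was at 1.68 and 1.03 CPM against 0.428 CPM in MDA-MB-231, and at 0.804 and 0.770 CPM against 0.606 CPM in BT-549.

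Between ADAR siRNA libraries 2 and 1, 1 of 48 pathway genes was called, the receptor gene NOTCH3, where edgeR called 6 of 20470 genes (0.0293%), 0.00489% being lower in library 2. NOTCH3 was higher in library 2 by a log2 difference of 1.26 ± 0.18 (edgeR adjusted p = 0.00734, 4 of 4 lines). The fit takes the library number as a term shared by the lines, and the sources used here do not say that it means the same in each. In AGS it was at 303 CPM in library 2 and 130 CPM in library 1, against 184 CPM with control siRNA. In BT-549 it was at 50.4 CPM in library 2 and 18.3 CPM in library 1, against 16.0 CPM with control siRNA. In NCI-H1395 it was at 24.3 CPM in library 2 and 9.48 CPM in library 1, against 15.8 CPM with control siRNA, and in MDA-MB-231 it was at 1.45 and 1.01 CPM, against 1.23 CPM. POGLUT3 was lower in library 2 in all of these but MDA-MB-231. The call of NOTCH3 ended without AGS and without the line term. DESeq2, which called 64 genes in all, called 3 pathway genes (NOTCH3, GXYLT1 and LTBP2). With no low-count filter edgeR called 274 genes in all and 5 pathway genes (NOTCH3, FURIN, GXYLT1, B4GALT1 and LTBP2).

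The genes whose pattern over the 12 siRNA libraries was most like that of POGLUT3, after the mean of each line was taken off, were DTL (Pearson r = 0.982), LIG3 (0.98), ANP32E (0.98), SPAG5 (0.98) and HMGB2 (0.979), among 9434 genes with a mean log2 CPM of at least 3. The least like were CKMT2-AS1 (-0.962), LSM1 (-0.96) and ZDHHC14 (-0.951). These values describe 12 libraries that share 4 controls. DTL was at 52.1 and 36.9 CPM with ADAR siRNA and 63.8 CPM with control siRNA in NCI-H1395, a narrower range than that of POGLUT3. Of the glycosyltransferases POFUT1 was the most alike, with r = 0.685, and POGLUT2 the least, with r = -0.703. Values like that of POFUT1 were common, as 14.5% of the 9434 genes were at or above it. ADAR itself had r = 0.733, and 11.5% of the 9434 genes were at or above that. Between libraries 1 and 2 of AGS, the ADAR share of control siRNA rose from 17.6% to 24.0%, while that of POGLUT3 fell from 73.4% to 29.8%. NCI-H1395 likewise had the higher ADAR share and the lower POGLUT3 share in library 2. Both shares were lower in library 2 of BT-549 and higher in library 2 of MDA-MB-231. Of the 8 genes named as most or least like POGLUT3, only 1 to 5 were kept when Spearman's rho was used or a line was left out.

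NOP14 overexpression gave another view of the 9 genes in MDA-MB-231, with 1 library an arm and no test. NOP14 was at 852 CPM under overexpression and 129 CPM under PCDH. None of the 9 genes differed by 2-fold or more, where 0.549% of 14201 genes did, 0.31% being lower. POGLUT3 was at 134 CPM under NOP14 overexpression and 145 CPM under PCDH, a ratio of 0.926 (95% counting interval 0.882 to 0.971). MFNG was at 2.08 and 3.33 CPM (ratio 0.624, 0.428 to 0.901) and POGLUT2 at 7.57 and 10.2 CPM (0.745, 0.611 to 0.907), the lowest ratios of the 9. The other 6 had ratios from 0.896 (EOGT) to 1.09 (POFUT2). ADAR was at 325 CPM under NOP14 overexpression and 342 CPM under PCDH.

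The PCDH library and the control siRNA library of MDA-MB-231 differed in the same genes by more than NOP14 and PCDH did. POGLUT3 was at 145 CPM under PCDH and 81.4 CPM with control siRNA, a ratio of 1.78 (1.68 to 1.89). RFNG was 2.49 times and POGLUT2 2.04 times as high under PCDH, and MFNG 4.16 times (2.39 to 7.75). POFUT1 was 1.18 times as high and LFNG 0.796 times. Of 15273 genes 45.9% differed by 1.5-fold or more between these libraries, 27.5% being higher under PCDH, so ratios past 1.5-fold were common. The shares of genes past the larger ratios of RFNG, POGLUT2 and MFNG were not counted. Transfection, vector and the handling of the libraries cannot be told apart here, and NOP14 itself was at 129 CPM under PCDH and 335 CPM with control siRNA.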

How the data were processed

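The deposited table holds whole-number read counts by gene and library. Per the submitters' processing notes, the authors used STAR 2.7.11a, fastp 0.23.4 and featureCounts 2.0.6 with build hg38. For the annotation version and the counting by strand, the sources used here give nothing. Of 62702 lines in the table, 3 broken lines of 1 gene (ANK2) were not used. All 14 count columns matched a sample, and samples were grouped by the labels.

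Genes were kept with filterByExpr, scaled with TMM and tested with robust quasi-likelihood F tests in edgeR 4.0.16 (R 4.3.3), with Benjamini-Hochberg adjustment over all genes at 0.05. DESeq2 1.42.0 was an alternative. Over the 4 lines, both ADAR siRNA libraries were added up within each line (8 columns, line as a term). Within lines the single control was given the spread of the ADAR siRNA pairs. Ratios are of TMM-scaled counts (CPM), with exact 95% counting intervals, and log2 ratios of single libraries use a prior count of 2. Totals set the precision, and PCR copies are not independent molecules. All 9 genes and the pathway lists are reported by list, and the genes most like POGLUT3 are the 5 highest and 3 lowest correlations. These genes, lists and tests were chosen with earlier results of these data known.

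The tests were tested on simulated data. Changed genes were drawn only from those with higher mean counts, so low genes such as MFNG are not covered. Each library was drawn on its own, so spread shared by both ADAR siRNA libraries of a line was not simulated. The shares found below thus need not hold for these data. Over the 4 lines (20801 genes) the test found 84% of genes changed 2-fold and 98% of genes changed 4-fold, and made 23 false calls. For library 2 against 1 (19550 genes) these were 79% and 99%, with 7 false calls. For 1 changed line among 4 (18874 genes) they were 37% and 90%, with 15 false calls. Within NCI-H1395 (22951 genes) they were 9% and 85%, with 14 false calls. Promoters are RefSeq sequences of GRCh38.p14. Alternatives were other scalings, filters and tools, libraries of 1 number, and leaving out each line or library.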

Additional observations from a re-analysis of the deposited data

Results flagged for a closer look

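For POGLUT1 and LFNG both ADAR siRNA libraries of some lines lay above the control siRNA and both of another line lay below it. POGLUT1 had a mean log2 ratio of 0.70 in AGS and -0.23 in NCI-H1395, a difference of 0.924, and it was lower in both libraries of BT-549 as well. LFNG had a mean log2 ratio of 1.45 in BT-549 and -0.37 in NCI-H1395, a difference of 1.82, and it was higher in both libraries of MDA-MB-231 too. The LFNG value of BT-549 rests on 5 counts with control siRNA. Neither difference was tested, and each line has 1 control library.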

How the results depend on the processing

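Over the 4 lines edgeR called 4 genes. With no low-count filter it called 394, with the CPM filter 0 (2098 at an unadjusted p under 0.05), with number 1 libraries alone 14, with number 2 libraries alone 0 (2765), unsummed 1, without MDA-MB-231 75, without BT-549 0 (2033), without NCI-H1395 0 (1608), and leaving out single libraries 0 to 2; DESeq2 called 676. Within MDA-MB-231, BT-549, NCI-H1395 and AGS the counts were 107, 27, 72 and 33 with no filter, 45, 3, 47 and 14 with DESeq2, and 2 to 60, 1 to 32, 1 to 39 and 1 to 8 leaving out single libraries; median-ratio scaling gave 2 in AGS. For library 2 against 1 edgeR called 6, with no filter 274, with DESeq2 64, with no line term 0, without MDA-MB-231 120, without BT-549 75, without NCI-H1395 21 and without AGS 0. Between lines the count was 14523 to 17518 leaving out single libraries. Differences of library 2 from 1 correlated at 0.11 to 0.24 among BT-549, NCI-H1395 and AGS and at -0.07 to 0.010 with MDA-MB-231. Not every pair was thus over 0.1, and the main fits over, within and between lines did not use the numbers to pair samples. The fit of library 2 against 1 does take the number as a term shared by the lines. With the numbers as a replicate block 16680 genes differed between lines. Of the 8 genes named for likeness to POGLUT3, 4 were kept with Spearman's rho, and 1, 5, 1 and 2 without MDA-MB-231, BT-549, NCI-H1395 and AGS.

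Directions that turned, by log2, were LTBP2 (-0.038), NOTCH3 (-0.34), B4GALT1 (-0.11) and B3GLCT (-0.080) with number 1 libraries alone, DLL1 without BT-549 (0.18) and JAG1 without NCI-H1395 (-0.010). For library 2 against 1 they were MFNG with no line term (0.049), without MDA-MB-231 (0.033) and without BT-549 (0.22), RFNG without MDA-MB-231 (-0.012), POFUT1 without NCI-H1395 (0.0088) and POFUT2 without AGS (-0.016). Beyond what leaving out samples or genes itself changes, the cause was not tested. Scaling to library totals moved the median of all genes to 0.12. MFNG, and LFNG in BT-549, were limited by depth.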
